A study of Mus musculus with 8 samples.

Results

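The genes of the 5 respiratory chain complexes were followed in R1 mouse embryonic stem cells after knockdown of Mkrn1. The members were all genes on the array whose symbol begins with Nduf, Uqcr, Atp5 or Cox4 to Cox8, together with Sdha, Sdhb, Sdhc and Sdhd. Of 19937 genes with a named probe set, 89 met this rule: 34 subunits of complex I, 7 assembly factors of complex I with Ndufaf symbols, 4 subunits of complex II, 8 of complex III, 19 of complex IV and 17 of complex V. Ndufa4 and Ndufa4l2 carry complex I symbols and were counted with complex IV, where the Ndufa4 protein is now placed. Cox7c, Ndufb4, Ndufb4b and Ndufs5-ps were measured only by probe sets that carry several symbols and were not used. R1 is a male line of 129X1 x 129S1 background, labelled as inner cell mass of the blastocyst. Both groups were kept on gelatin with LIF and 15% serum, and each received 2 µg of a pLKO.1 plasmid by lipofection 48 h after seeding. One plasmid encoded a hairpin against GFP, which these cells lack (shGFP, 4 arrays), and the other a hairpin against Mkrn1, the gene of an E3 ubiquitin ligase (shMKRN1, 4 arrays). Puromycin at 2 µg/mL then removed cells without plasmid over 4 days in both groups, and lysis followed on day 6 after transfection. Each group thus rests on 1 hairpin carried transiently by a selected population. Whether the 4 samples of a group were transfected separately is not stated in the labels. The p-values therefore reflect only how these samples vary, and that variation may be technical.

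The respiratory chain is a row of protein complexes in the inner mitochondrial membrane. Complex I takes electrons from NADH and complex II takes them from succinate. Ubiquinone carries the electrons to complex III, and cytochrome c carries them on to complex IV, which reduces oxygen to water. Complexes I, III and IV pump protons, and complex V, the ATP synthase, uses the resulting gradient to make ATP. All genes treated here lie in the nucleus, while a few core subunits are encoded by mitochondrial DNA and are outside the symbol rule. Naive mouse embryonic stem cells are known to use both glycolysis and respiration.

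The median log2 value over genes was 7.58 to 7.65 per array, and any pair of arrays correlated at 0.993 to 0.998 across genes, a comparison in which genes are not replicates. In each group 1 array stood off along the first principal component (37.6% of the variance): shGFP 7 scored 23.2 while its group mates scored -3.45 to 6.2, and shMKRN1 8 scored 7.46 while its group mates scored -15.2 to -6.02. Mkrn1 itself read 10.45, 10.45, 10.51 and 10.34 in shGFP and 9.81, 9.81, 9.86 and 9.88 in shMKRN1. It was lower in every knockdown array than in any control array, and in log2 terms it fell by 0.60 (SE 0.0521; limma adjusted p = 0.000767), to 66.2% of control. The stem cell markers Pou5f1 (11.99 and 11.98) and Sox2 (11.66 and 11.63) were high in both groups. Of the 10 stem cell markers 1 was called, Nanog, which rose by 0.25 (limma adjusted p = 0.0256), while Fgf4 (0.13) was separated between groups and Utf1 was at -0.15, neither past the test. Among markers of other cell types, 4 of 7 mesendoderm genes were called higher in shMKRN1, and the mean shift of that list ran from -0.169 to 0.081 log2 per array in shGFP and from 0.418 to 0.69 in shMKRN1. For 10 fibroblast genes the same shift ran from -0.059 to 0.041 in shGFP and from -0.015 to 0.186 in shMKRN1. Of these, 2 were called higher, Col1a1 (0.37; limma adjusted p = 0.0486) and Pdgfrb (0.35; limma adjusted p = 0.0342), both without overlap, and Lum was at 3.80 and 3.78. The shift of 6 neural genes ran from -0.081 to 0.088 in shGFP and from -0.324 to -0.266 in shMKRN1, that of 6 primitive endoderm genes from -0.136 to 0.122 and from -0.102 to 0.098, and that of 10 stem cell genes from -0.041 to 0.037 and from -0.003 to 0.058. Their part in the values below was not tested. In bulk RNA, a lower share of cells of a type and less RNA per cell cannot be told apart.

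Most respiratory chain genes had a slightly higher mean in the knockdown, and 4 of them passed the test. The mean was higher in shMKRN1 for 74 of the 89 members (83.1%), against 52.8% of all genes and 63.4% of the genes above the median level. The median difference was 0.077 log2 over the members, 0.008 over all genes and 0.041 over the genes above the median level, and the members ran from -0.16 to 0.42. In a limma fit over all genes, with p-values adjusted over all of them at a threshold of 0.05, 4 members were higher and none lower. That is 4.49% of the members, the same share as the 4.49% of all genes called in either direction. Of all genes, 3.66% were called higher. In this fit the share of called members was thus the background share. Other variance models called more: with array weights 23 members were higher (25.8%, against 9.7% of all genes), and with a trend and robust prior 19 (21.3%, against 6.14%). The call count also rested on single arrays, with 2 calls when shGFP 1 was left out and 1 call when any of shGFP 3, shMKRN1 2, shMKRN1 4 or shMKRN1 6 was left out.

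The 4 called members were Atp5g1 (0.42), Cox7a1 (0.38), Cox4i1 (0.25) and Ndufab1 (0.23). Another 7 members had a limma adjusted p between 0.05 and 0.1, and all 7 were higher in shMKRN1: Uqcrq, Ndufaf3, Ndufaf4, Atp5l, Ndufaf6, Ndufa4 and Ndufa8. The share of all genes in that range was not counted. Of the genes called over all genes, 81.4% were higher. The 4 arrays of one group lay wholly above those of the other for 21 members (23.6%), each time with shMKRN1 on top. Over all genes 10.6% were separated in that direction and 3.51% in the other. Before adjustment, 24 members (27.0%) were higher at p under 0.05 and none lower, against 13.7% and 5.78% of all genes. Most members are abundant transcripts: 81 of the 89 lay above the median level of all genes. Of the 9968 genes above it, 1729 were separated with shMKRN1 on top and 457 the other way, against 21 and 0 of the 81. At unadjusted limma p under 0.05, 2090 of the 9968 were higher and 629 lower, against 24 and 0 of the 81. The fit over all genes called 546 of the 9968 higher, against 4 of the 81. In a fit restricted to the genes above that level, 19 of the 81 (23.5%) were called higher, and 12.9% of the genes in that fit were. Past 1.2-fold higher there were 3 of the 89 members, Atp5g1, Cox7a1 and Ndufa4, against 823 of the 19937 genes and 531 of the 9968. None of the members was past 1.2-fold lower, against 347 of the 19937 and 195 of the 9968.

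**Figure D1:**
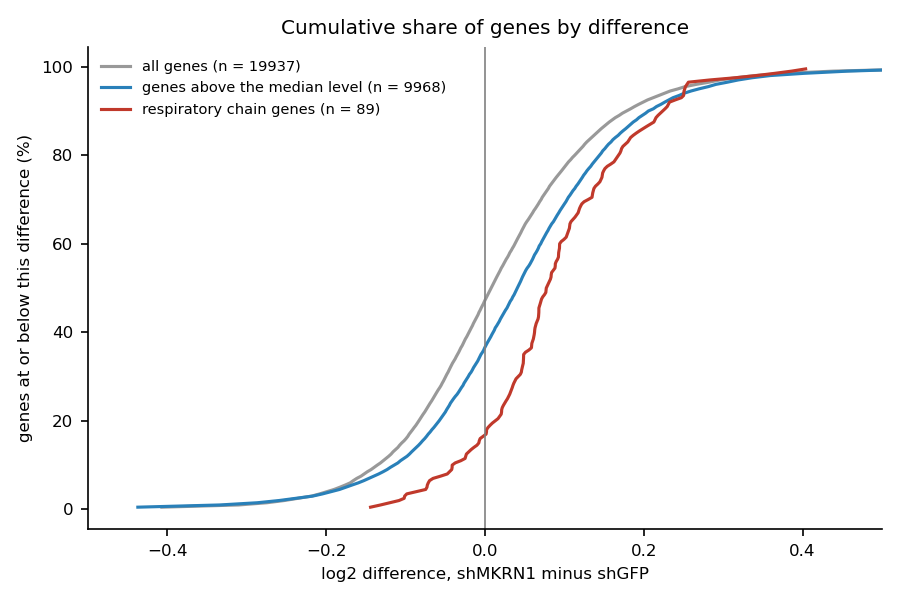
Cumulative share of genes (y axis, percent) at or below each log2 difference between shMKRN1 and shGFP (x axis) for all 19937 genes, the 9968 genes above the median level and the 89 respiratory chain genes. The curve of the respiratory chain genes lies to the right through its middle, with a median of 0.077 against 0.041 and 0.008, and meets the other curves at the upper end.

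**Figure D2:**
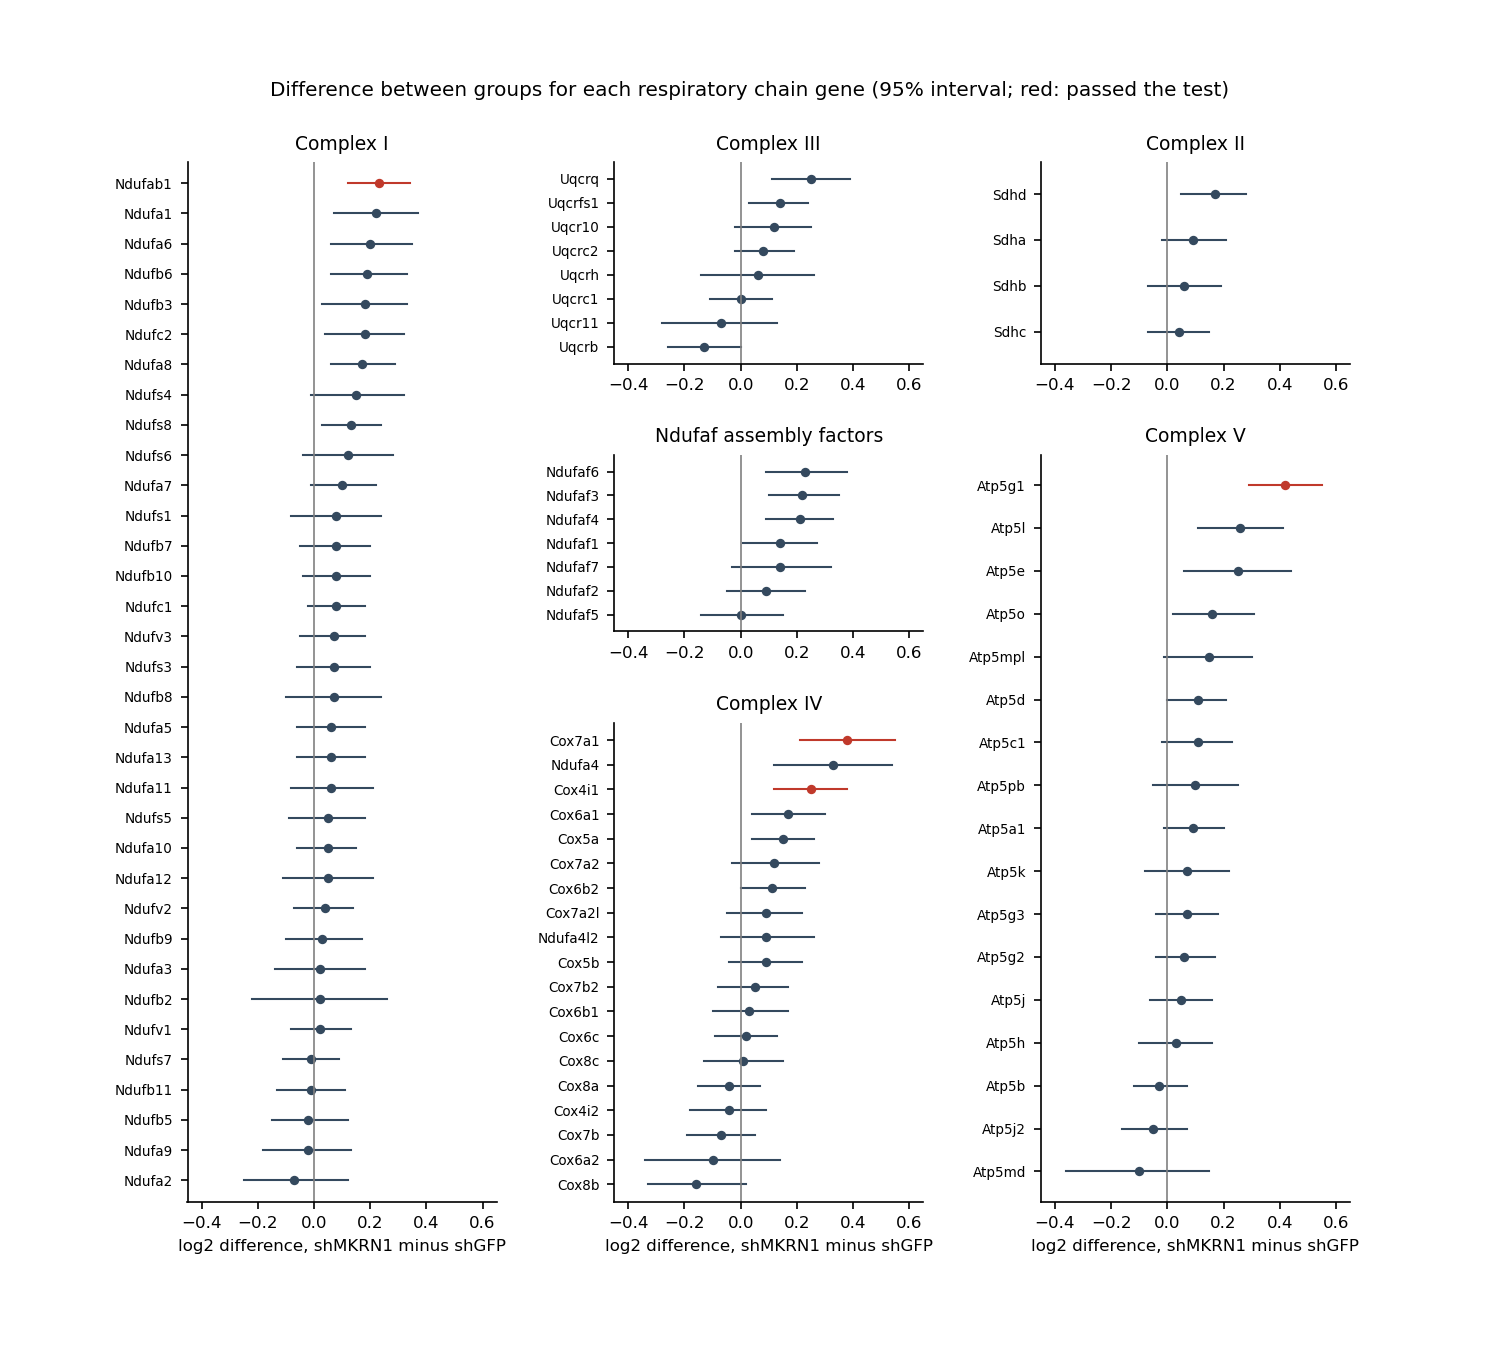
Log2 difference, shMKRN1 minus shGFP, of each of the 89 genes by complex (points, with 95% confidence intervals from limma). The 4 genes that passed the test are in red, and the other intervals lie mostly between -0.25 and 0.50.

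By complex, the median differences lay close together. The median was 0.068 for complex I, 0.076 for complex II, 0.073 for complex III, 0.088 for complex IV and 0.094 for complex V, and it was 0.144 for the 7 Ndufaf assembly factors. The mean was higher in shMKRN1 for 29 of 34 complex I genes, 7 of 7 Ndufaf genes, 4 of 4 in complex II, 6 of 8 in complex III, 14 of 19 in complex IV and 14 of 17 in complex V. No test between complexes was made. Medians of the smaller classes moved with single arrays: without shGFP 5 that of the Ndufaf genes was 0.222 and that of complex III 0.117, and without shGFP 7 or shMKRN1 4 that of complex III was 0.047 or 0.042.

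Averaged over all 89 members, the deviation from the shGFP mean was -0.009, -0.018, 0.043 and -0.015 in arrays shGFP 1, 3, 5 and 7, and 0.090, 0.129, 0.090 and 0.042 in shMKRN1 2, 4, 6 and 8. The groups touched, since shMKRN1 8 and shGFP 5 had nearly the same value. Genes above the median level overlapped more widely, with 0.010, 0.012, 0.027 and -0.050 in shGFP and 0.074, 0.060, 0.042 and -0.002 in shMKRN1. The Ndufaf factors stood at -0.027, 0.006, 0.094 and -0.073 in shGFP and at 0.161, 0.167, 0.168 and 0.102 in shMKRN1. Complexes II, IV and V were also separated between the groups, whereas complexes I and III were not. The lowest and highest complex I values were -0.027 and 0.038 in shGFP and 0.017 and 0.131 in shMKRN1, and those of complex III -0.054 and 0.077 against -0.016 and 0.135. Within shMKRN1 the complex IV averages were the tightest, between 0.070 and 0.087. Neither part of complex IV was separated by itself, in the split into common and restricted forms used below. The 11 common subunits reached 0.066 in shGFP 5 against 0.053 in shMKRN1 8. The 8 restricted forms reached 0.110 in shGFP 7 against -0.012 in shMKRN1 4.

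The array order was shared by many members. Array shGFP 5 was the highest control for 44 of the 89 genes, shMKRN1 4 the highest knockdown array for 43 and shMKRN1 8 the lowest for 44. The mean pairwise correlation of the deviations from the group means, over 8 arrays and as a description, was 0.132 between members, 0.123 between genes above the median level and 0.027 between all genes. By class it was 0.293 for the Ndufaf factors, 0.254 for complex III, 0.176 for complex I, 0.128 for complex V, 0.046 for complex IV and -0.097 for complex II. These values share the 8 arrays and their scaling.

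**Figure D3:**
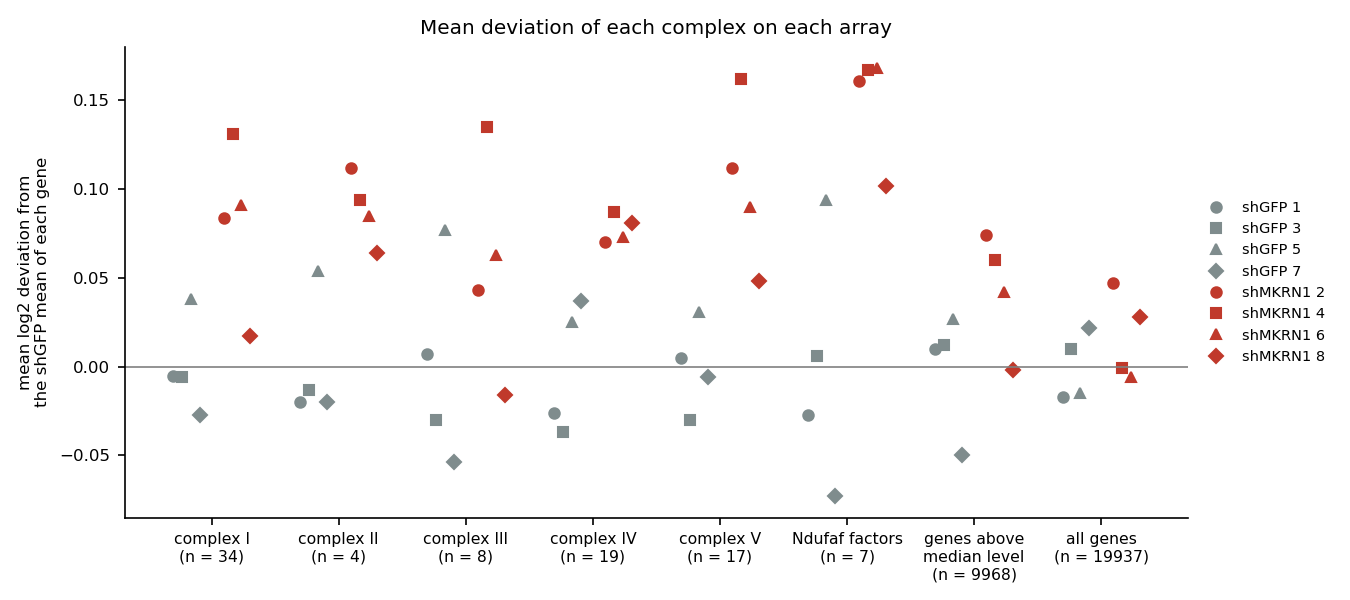
Mean log2 deviation from the shGFP mean of each gene (y axis), per array, for each complex, the Ndufaf factors, the genes above the median level and all genes; grey symbols are the 4 shGFP arrays and red symbols the 4 shMKRN1 arrays. The groups are apart for complexes II, IV and V and the Ndufaf factors and overlap for complexes I and III and both sets of genes at the right.

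In complex I, the entry point for electrons from NADH, 1 of 34 genes was called. Ndufab1, which encodes the mitochondrial acyl carrier protein that also serves as an accessory subunit, read 9.61, 9.62, 9.66 and 9.71 in shGFP and 9.88, 9.92, 9.88 and 9.83 in shMKRN1. All knockdown arrays were above all controls, and Ndufab1 rose by 0.23 (SE 0.0483; limma adjusted p = 0.0284). A dimmer probe set of Ndufab1 differed by -0.08 (SE 0.091), so the probe sets of this gene disagreed, and with their mean the limma adjusted p was 0.529. The call was kept only when shGFP 7 or shMKRN1 8 was left out and lost without any of the other 6 arrays (limma adjusted p up to 0.099). It was also lost with adjustment over every probe set, with median centring over genes and with quantile normalization over genes or over every probe set (limma adjusted p of 0.0595 to 0.0914).

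Of the accessory subunits around the core, Ndufa8 came next, at 10.03, 9.97, 10.04 and 10.13 in shGFP and 10.26, 10.15, 10.23 and 10.22 in shMKRN1 (0.17, SE 0.052; limma adjusted p = 0.096). The knockdown arrays lay above the controls by a narrow margin and the gene did not pass. Ndufa1, a small membrane subunit, differed by 0.22 (SE 0.0675; limma adjusted p = 0.107), with shMKRN1 8 (7.68) just below shGFP 5 (7.69). Ndufa6 (0.20), Ndufb6 (0.19), Ndufs8 (0.13) and Ndufc1 (0.08) were separated between the groups without passing the test. At the other end stood Ndufa2 (-0.07, SE 0.0834). The 28 accessory subunits had a median of 0.069, with 24 higher in the mean.

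The 6 measured core subunits, among them those that carry the flavin and the iron-sulphur clusters, had a median of 0.053, and none passed. Ndufs8, an iron-sulphur subunit, read 10.69, 10.71, 10.68 and 10.76 in shGFP and 10.89, 10.83, 10.85 and 10.80 in shMKRN1 (SE 0.0468; limma adjusted p = 0.142). It was the core gene whose groups did not overlap. Ndufs1 (0.08), Ndufs3 (0.07), Ndufv2 (0.04) and Ndufv1 (0.02), of the arm that takes up electrons, overlapped between groups, with limma adjusted p from 0.598 to 0.838. Ndufs7, another iron-sulphur subunit of the same arm, lay between 12.72 and 12.79 in shGFP and between 12.73 and 12.77 in shMKRN1, and its difference of -0.01 (95% interval -0.11 to 0.09) changed sign with the scaling.

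The Ndufaf assembly factors help complex I form and are not part of the finished enzyme. All 7 had a higher mean in shMKRN1, and none passed the test. Ndufaf3 and Ndufaf4, which work together early in assembly, differed by 0.22 (SE 0.0564; limma adjusted p = 0.0561) and 0.21 (SE 0.0544; limma adjusted p = 0.0576). Ndufaf3 read 8.82, 8.87, 8.96 and 8.98 in shGFP against 9.20, 9.16, 9.10 and 9.07 in shMKRN1, and Ndufaf4 8.43, 8.53, 8.64 and 8.53 against 8.77, 8.71, 8.75 and 8.76. In both genes every knockdown array was above every control. Ndufaf6 was at 8.10, 8.08, 8.15 and 7.87 in shGFP and at 8.31, 8.28, 8.27 and 8.28 in shMKRN1 (0.23, SE 0.0643; limma adjusted p = 0.0737). Its knockdown arrays agreed closely, and the widest control value came from shGFP 7. Ndufaf1 and Ndufaf7 differed by 0.14 each and Ndufaf2 by 0.09, while Ndufaf5, an enzyme that modifies Ndufs7, was at 6.95 and 6.96 (difference 0.00, 95% interval -0.14 to 0.15).

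Complex II, the succinate dehydrogenase that also works in the citric acid cycle, had 4 of 4 genes higher in the mean and none called. Sdhd, a membrane anchor, read 10.19, 10.16, 10.24 and 10.17 in shGFP and 10.38, 10.45, 10.28 and 10.33 in shMKRN1 (0.17, SE 0.0529; limma adjusted p = 0.112). Its groups did not overlap. Sdha, the flavoprotein, differed by 0.09 (SE 0.0505; limma adjusted p = 0.359), and its lowest knockdown arrays (10.84) were below shGFP 5 (10.86). The iron-sulphur subunit Sdhb (0.06; limma adjusted p = 0.667) and the other anchor Sdhc (0.04; limma adjusted p = 0.758) overlapped between groups.

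Complex III passes electrons from ubiquinol to cytochrome c. Uqcrq, a small subunit, was nearest to the threshold, with 9.37, 9.37, 9.44 and 9.35 in shGFP and 9.59, 9.75, 9.70 and 9.50 in shMKRN1 (0.25, SE 0.0629; limma adjusted p = 0.0544). The groups did not overlap, though shMKRN1 8 (9.50) was only just above shGFP 5 (9.44). Uqcrfs1, the Rieske iron-sulphur protein, stood at 8.81, 8.75, 8.87 and 8.80 in shGFP and at 8.92, 8.96, 8.95 and 8.94 in shMKRN1 (0.14, SE 0.0473; limma adjusted p = 0.143), also without overlap. Of the large core proteins, Uqcrc2 differed by 0.08 (SE 0.048; limma adjusted p = 0.393) and Uqcrc1 by 0.00 (95% interval -0.11 to 0.11), a value whose sign changed with the scaling.

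Uqcrb, the subunit that helps form a ubiquinone site, pointed the other way. It read 12.81, 12.87, 12.97 and 12.74 in shGFP and 12.67, 12.77, 12.74 and 12.70 in shMKRN1 (-0.13, SE 0.0593; limma adjusted p = 0.272). The groups overlapped, since shMKRN1 4 was above shGFP 7. Both other probe sets of Uqcrb had the same sign, at -0.26 (SE 0.071) and -0.11 (SE 0.0603). The first of them, nearly as bright (means 12.41 and 12.14), was lower on every knockdown array. It ran from 12.22 to 12.52 in shGFP and from 12.09 to 12.21 in shMKRN1. It did not pass either (limma p adjusted over every probe set = 0.117). Uqcr11 was the other complex III gene with a lower mean (-0.07).

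Complex IV, cytochrome c oxidase, is the complex with the most tissue-specific forms, and 2 of its 19 genes were called. Cox4i1, the common form of its largest nuclear subunit, read 10.11, 10.22, 10.33 and 10.30 in shGFP and 10.47, 10.49, 10.49 and 10.51 in shMKRN1. The knockdown arrays were nearly equal and all above the controls, and Cox4i1 rose by 0.25 (SE 0.0578; limma adjusted p = 0.0386). This call was kept without shGFP 5 or shGFP 7 and lost without any of the other 6 arrays (limma adjusted p up to 0.117). It was also lost with adjustment over every probe set, with the arrays centred over genes or quantile normalized over genes or every probe set, and when shGFP 7 and shMKRN1 8 were left out together (limma adjusted p up to 0.0827). Cox4i2, the form known from lung and low oxygen, was at 7.93, 8.03, 8.02 and 8.04 in shGFP and at 7.96, 7.86, 7.92 and 8.10 in shMKRN1 (-0.04, 95% interval -0.18 to 0.09; limma adjusted p = 0.781).

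Cox7a1 encodes the heart and skeletal muscle form of subunit 7a. Its values were 7.98, 7.74, 7.77 and 8.0 in shGFP and 8.32, 8.19, 8.33 and 8.16 in shMKRN1, with every knockdown array above every control. It rose by 0.38 (SE 0.0766; limma adjusted p = 0.0239), or 1.30-fold. The call was kept without shGFP 1, shGFP 7 or shMKRN1 8 and lost without any of the other 5 arrays (limma adjusted p up to 0.084), and it was also lost with adjustment over every probe set (0.0621). Cox7a2, the form found in most tissues, differed by 0.12 (95% interval -0.03 to 0.28; limma adjusted p = 0.388), and Cox7a2l, known for joining complexes III and IV, by 0.09 (-0.05 to 0.22; limma adjusted p = 0.489). The interval of Cox7a1, 0.21 to 0.55, reaches into that of Cox7a2, and the difference between them was not tested.

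Ndufa4 had the third largest difference of the 89 genes without passing the test. It read 9.70, 9.57, 9.89 and 9.50 in shGFP and 9.92, 10.12, 10.10 and 9.84 in shMKRN1 (0.33, SE 0.0946; limma adjusted p = 0.0833). The control shGFP 5 was above shMKRN1 8, so the groups overlapped. Its relative Ndufa4l2, a form induced by low oxygen, differed by 0.09 (SE 0.0738; limma adjusted p = 0.565). Counted by symbol in complex I, the pair left complex IV with a median of 0.046 in place of 0.088.

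The other tissue forms showed no shared direction. Cox6a1, the common form, was separated between groups (0.17, SE 0.0569; limma adjusted p = 0.127), while its muscle form Cox6a2 was at -0.10 (SE 0.108; limma adjusted p = 0.688). Cox6b1 was at 0.03 (limma adjusted p = 0.841), and the testis form Cox6b2 was separated at 0.11 (SE 0.0523; limma adjusted p = 0.272). Cox7b was at -0.07 (limma adjusted p = 0.526) and its second probe set at -0.17 (SE 0.0804). Cox8a (-0.04), the muscle form Cox8b (-0.16, SE 0.0779; limma adjusted p = 0.309) and the testis form Cox8c (0.01) overlapped between groups. Cox8b had the lowest difference of all 89 genes. The testis form Cox7b2, at 5.20 and 5.25, was the 1 member below 6.5, the level under which 95% of 1194 olfactory and vomeronasal receptor genes lay, so its values carry no information on a change. Cox8b was close to that level, at 6.71 and 6.55 with shMKRN1 6 at 6.38, so the size of its difference is uncertain. Over the 8 restricted forms, a split made after the values were known, the median was 0.027 with 5 of 8 higher in the mean, and over the other 11 genes it was 0.089 with 9 of 11. Cox5a (0.15, SE 0.0488; limma adjusted p = 0.123), a common subunit on the matrix side, was also separated between groups.

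In complex V, the ATP synthase, 1 of 17 genes was called, and it had the largest difference of all members. Atp5g1 is one of a group of 3 genes that encode the same mature c subunit of the rotating membrane ring, each with its own import sequence. It read 12.28, 12.28, 12.23 and 12.08 in shGFP and 12.63, 12.70, 12.62 and 12.61 in shMKRN1. The lowest knockdown array was well above the highest control, and Atp5g1 rose by 0.42 (SE 0.059; limma adjusted p = 0.00513), or 1.34-fold. The call was kept without each of the 8 arrays in turn (limma adjusted p up to 0.023) and under all 11 other settings tried (up to 0.0234). A second, dim probe set of Atp5g1 went from 7.10 to 7.24 (0.13, SE 0.0777). Whether its probes also read copies of the gene elsewhere in the genome was not tested, and the same holds for the other members with pseudogene copies.

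The sister genes of the c subunit differed less. Atp5g2 read 12.45, 12.41, 12.45 and 12.51 in shGFP and 12.46, 12.55, 12.55 and 12.52 in shMKRN1 (0.06, 95% interval -0.04 to 0.17; limma adjusted p = 0.532). Its dimmer probe sets differed by -0.12 (SE 0.117) and 0.06 (SE 0.0735), and with the mean of all its probe sets the difference was 0.002. Atp5g3 read 12.04, 12.05, 12.16 and 12.13 against 12.16, 12.17, 12.15 and 12.16 (0.07, 95% interval -0.04 to 0.18; limma adjusted p = 0.513). Both overlapped between groups, and both intervals lie below that of Atp5g1, 0.29 to 0.55. The difference between the 3 genes was not tested directly.

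In the catalytic head of the synthase no gene was called, and each differed by less than Atp5g1. Its alpha subunit gene Atp5a1 was separated between groups, at 11.83, 11.88, 11.89 and 11.94 in shGFP and 11.97, 11.95, 12.01 and 11.98 in shMKRN1 (0.09, SE 0.0468; limma adjusted p = 0.311). The beta subunit gene Atp5b lay between 13.32 and 13.37 in shGFP and between 13.31 and 13.35 in shMKRN1 (-0.03, 95% interval -0.12 to 0.07). Atp5e, the epsilon subunit, differed by 0.25 (SE 0.084; limma adjusted p = 0.129), with the highest control (8.21) above shMKRN1 8 (8.20). Atp5c1 and Atp5d differed by 0.11 each, Atp5d without overlap between groups, and neither passed the test. The 5 head genes together had a median of 0.107, and the other 12 genes of complex V had a median of 0.07.

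Among the membrane and stalk subunits, Atp5l, the g subunit of the membrane part, read 10.50, 10.44, 10.47 and 10.58 in shGFP and 10.81, 10.89, 10.61 and 10.71 in shMKRN1 (0.26, SE 0.0677; limma adjusted p = 0.0632). The groups were apart, but 1 of the 4 other probe sets of Atp5l had the opposite sign (-0.07). Atp5md, a small membrane subunit, had the lowest value of the complex (-0.10, SE 0.115; limma adjusted p = 0.702), and its own 3 probe sets ran from -0.15 to 0.18. Over the 17 members of the whole chain with several probe sets, all probe sets had the same sign for 9.

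**Figure D4:**
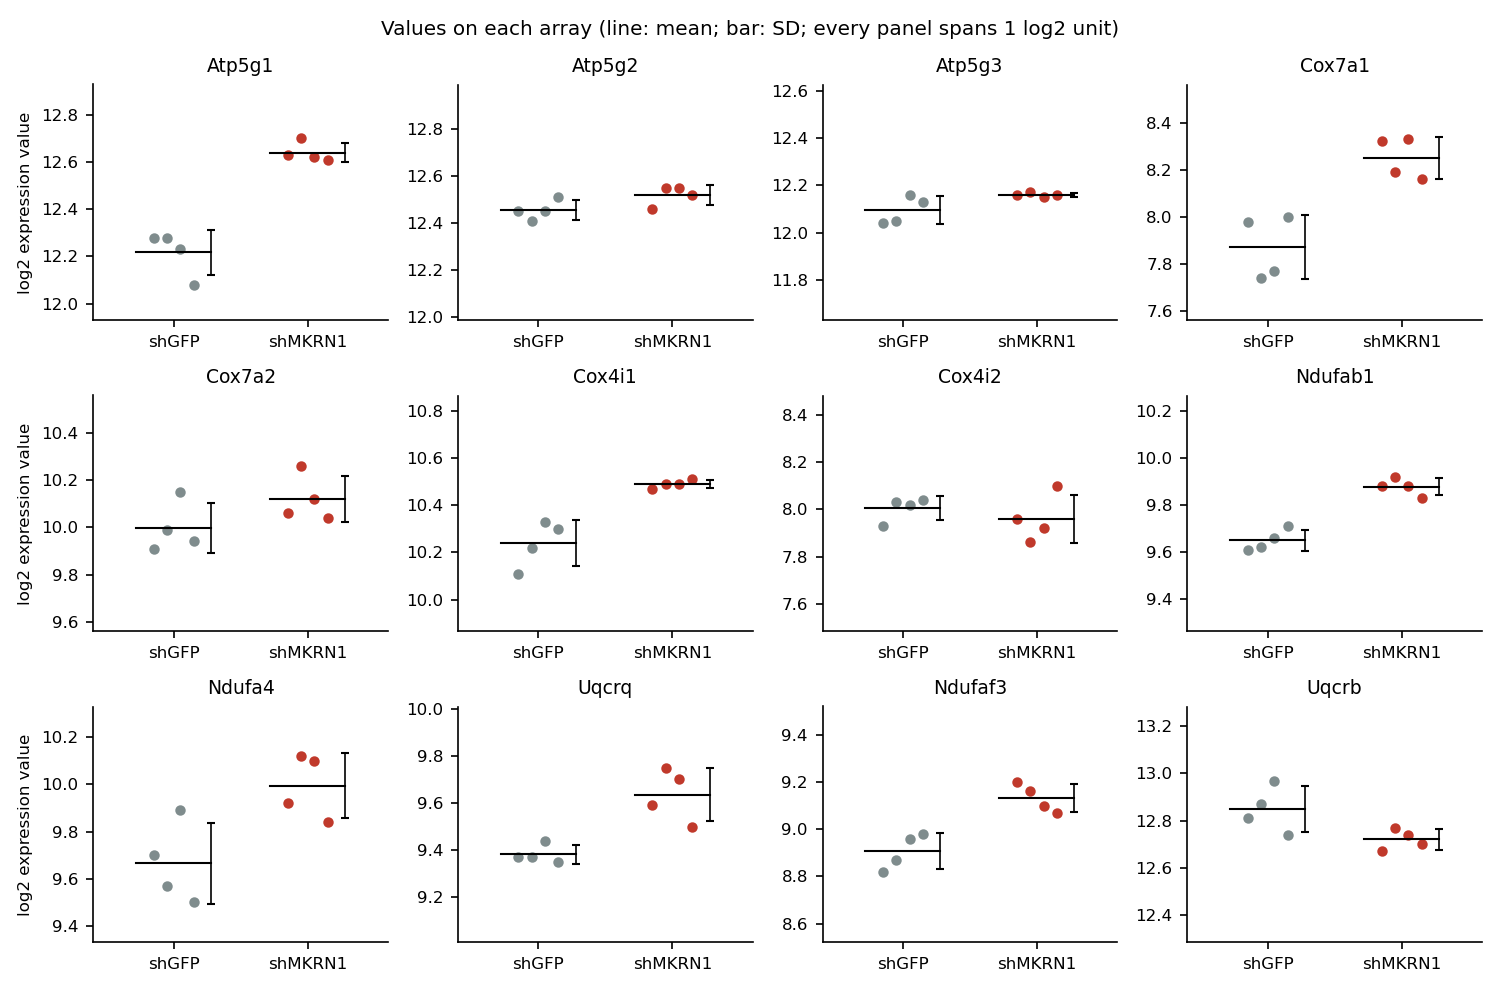
Log2 expression value on each array (points) for 12 genes in shGFP (grey) and shMKRN1 (red), with the group mean (line) and SD (bar, n = 4); every panel spans 1 log2 unit, and levels are not compared between genes. Atp5g1, Cox7a1, Cox4i1 and Ndufab1 passed the test, Atp5g2, Atp5g3, Cox7a2 and Cox4i2 overlap between groups, and Uqcrb has the lower mean in shMKRN1.

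Promoter sequences are shown for the 3 c subunit genes and for the Cox7a1 and Cox7a2 pair, because within each set 1 gene was called and the others were not. They come from RefSeq (GRCm38.p6), whose table held 73 of the 89 members, and cover the 250 bases before the start of the transcript, read 5′ to 3′ on the gene's strand. Capitals mark a match, on either strand, to a motif known from promoters of respiratory genes: GCGCANGCG (NRF1), CCGGAAGT (ETS factors), AAGATGGCG (YY1), TCAAGGTCA (ESRRA) or CCAAT (NF-Y).
Atp5g1, chr11:96075632-96075881, minus strand: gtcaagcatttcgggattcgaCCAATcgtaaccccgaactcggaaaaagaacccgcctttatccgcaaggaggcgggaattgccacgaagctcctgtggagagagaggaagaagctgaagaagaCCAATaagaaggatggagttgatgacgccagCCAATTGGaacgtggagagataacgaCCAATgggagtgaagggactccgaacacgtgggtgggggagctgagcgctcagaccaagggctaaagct
Atp5g2, chr15:102671048-102671297, minus strand: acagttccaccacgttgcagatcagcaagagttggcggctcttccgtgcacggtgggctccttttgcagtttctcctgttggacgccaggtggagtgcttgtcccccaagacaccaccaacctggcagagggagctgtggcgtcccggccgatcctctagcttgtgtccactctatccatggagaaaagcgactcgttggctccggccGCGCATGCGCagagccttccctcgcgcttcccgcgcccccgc
Atp5g3, chr2:73911327-73911576, minus strand: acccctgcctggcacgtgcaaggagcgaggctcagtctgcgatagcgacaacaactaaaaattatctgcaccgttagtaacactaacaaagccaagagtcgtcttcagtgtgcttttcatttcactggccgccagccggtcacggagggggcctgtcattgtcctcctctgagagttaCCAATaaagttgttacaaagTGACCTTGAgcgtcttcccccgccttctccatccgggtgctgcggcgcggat
Cox7a1, chr7:30183921-30184170, plus strand: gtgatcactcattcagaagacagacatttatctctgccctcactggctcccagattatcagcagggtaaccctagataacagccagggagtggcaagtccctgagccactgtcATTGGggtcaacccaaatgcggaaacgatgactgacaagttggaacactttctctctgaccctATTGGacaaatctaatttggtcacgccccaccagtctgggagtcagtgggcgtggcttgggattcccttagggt
Cox7a2, chr9:79759854-79760103, minus strand: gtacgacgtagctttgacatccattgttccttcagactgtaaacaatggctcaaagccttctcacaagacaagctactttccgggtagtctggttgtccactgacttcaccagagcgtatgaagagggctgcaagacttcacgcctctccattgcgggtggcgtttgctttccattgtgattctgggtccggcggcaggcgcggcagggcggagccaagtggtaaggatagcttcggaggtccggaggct

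The called Atp5g1 held 5 CCAAT matches in this stretch, beginning 229, 126, 95, 92 and 69 bases before the start. Those at 95 and 92 lie on opposite strands and overlap. Cox7a1 held CCAAT matches at 137 and 74 bases before the start, both on the opposite strand. Atp5g2 held overlapping NRF1 matches at 42 and 41 bases, which are the same letters read on both strands. Atp5g3 held CCAAT at 72 and an ESRRA match at 52 bases, with an NRF1 match only beyond or across the start, and the stretch of Cox7a2 held none of these letters. The stretch of the called Ndufab1, not printed here, also held none of them. For the called Cox4i1 no promoter was available.

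Counted over a window from 250 bases before to 50 bases after the start, the NRF1 letters were in 21 of the 73 member promoters (28.8%) and in 7.03% of the 27025 genes in the table. The YY1 letters were in 9.59% of members and 1.64% of all genes, those of ESRRA in 2.74% and 0.466%, those of ETS factors in 6.85% and 4.31%, and CCAAT in 43.8% and 41.1%. By complex, NRF1 matches were in 7 of 15 promoters of complex V, 7 of 31 of complex I, 2 of 6 of the Ndufaf factors, 2 of 3 of complex II, 2 of 5 of complex III and 1 of 13 of complex IV. Members with and without the NRF1 letters both had a median difference of 0.08 in the knockdown (21 and 52 genes). With and without CCAAT the medians were 0.09 and 0.08 (32 and 41 genes), for ETS letters 0.03 and 0.09 (5 and 68), for YY1 0.05 and 0.085 (7 and 66) and for ESRRA 0.12 and 0.08 (2 and 71). These differences were not tested. A match describes the letters and is not a measured binding site.

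The chain cannot be built without helpers that are not subunits, and 42 of 46 further assembly factors outside the symbol rule were measured. The median difference was 0.105, 35 of 42 had a higher mean in shMKRN1, 4 were called higher and 1 lower. Over all genes 52.8% had a higher mean, 3.66% were called higher and 0.838% lower. All 4 called higher act on complexes I or IV, as do most factors of the list (9 and 19 of the 42). Coa7, a heme-binding factor of complex IV, read 8.63, 8.64, 8.80 and 8.70 in shGFP and 9.07, 9.12, 8.96 and 8.96 in shMKRN1 (0.33, SE 0.0609; limma adjusted p = 0.0162). Every knockdown array was above every control. Its call was lost without shGFP 3, shMKRN1 2 or shMKRN1 4 (limma adjusted p up to 0.064).

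Timmdc1, needed for the membrane arm of complex I, rose by 0.23 (SE 0.0495; limma adjusted p = 0.0329). Surf1, a complex IV factor whose loss causes Leigh syndrome, rose by 0.21 (SE 0.0453; limma adjusted p = 0.0287), and Cox14, a factor for making the Cox1 subunit, rose by 0.22 (SE 0.0496; limma adjusted p = 0.0389). The calls of these 3 genes each held in only 1 of the 8 fits that leave out an array. Timmdc1 and Cox14 kept theirs without shGFP 5 and Surf1 without shGFP 7 (limma adjusted p up to 0.124 in the others). All 3 were also lost with adjustment over every probe set and with median centring or quantile normalization over genes (limma adjusted p up to 0.119). Tmem186, the complex I factor with the next smallest p, was at 0.16 (SE 0.0817; limma adjusted p = 0.32).

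A lower mean in shMKRN1 was found for 7 of the 42 factors. Cox20, a chaperone that brings the Cox2 subunit of complex IV to maturity, was the 1 called lower. It read 9.60, 9.66, 9.35 and 9.45 in shGFP and 9.13, 9.22, 9.23 and 8.96 in shMKRN1, with no overlap, and fell by 0.38 (SE 0.0844; limma adjusted p = 0.0336). The call held without shGFP 5 or shGFP 7 and was lost without any of the other 6 arrays (limma adjusted p up to 0.106), with adjustment over every probe set and without shGFP 7 and shMKRN1 8 together. Among the complex III factors, Uqcc3 also stood lower on every knockdown array (-0.17, SE 0.0608; limma adjusted p = 0.155), while Bcs1l, which inserts the Rieske protein Uqcrfs1, stood higher (0.14, SE 0.0534; limma adjusted p = 0.189). By complex, the medians were 0.102 for 9 complex I factors, 0.005 for 4 complex II factors (Sdhaf1 0.09, Sdhaf3 -0.08), 0.132 for 6 complex III factors, 0.113 for 19 complex IV factors and 0.077 for 4 complex V factors (Atpaf2 0.12, Tmem70 0.15).

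**Figure D5:**
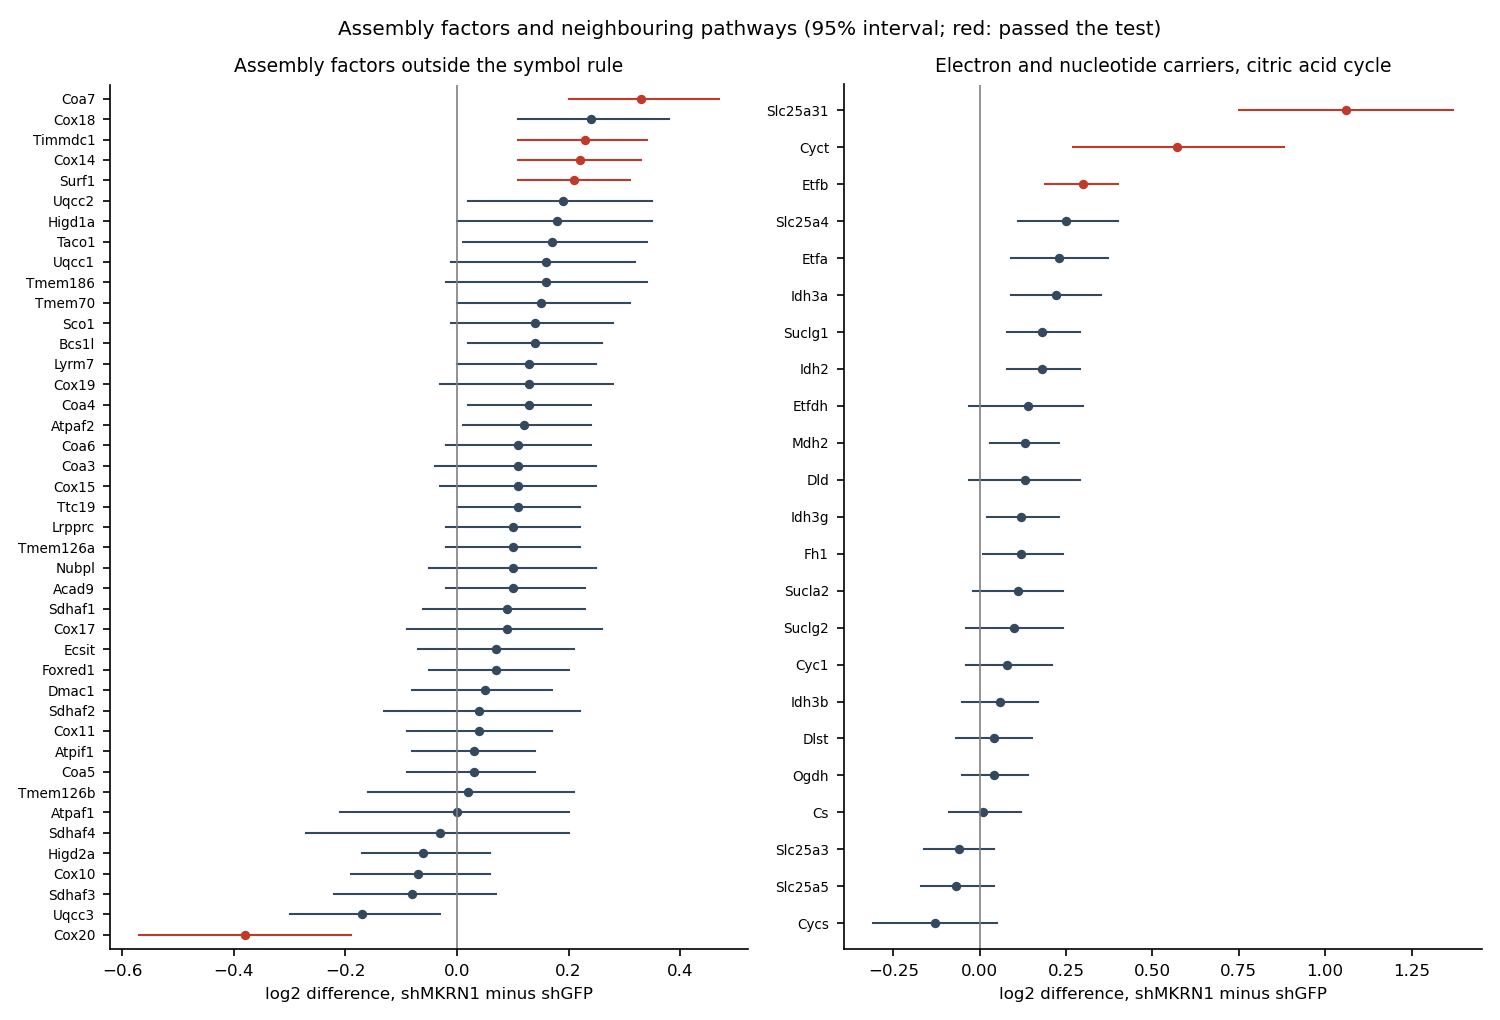
Log2 difference, shMKRN1 minus shGFP, with 95% confidence intervals, for the 42 assembly factors outside the symbol rule (left) and for electron carriers, nucleotide and phosphate carriers and citric acid cycle enzymes (right). Red genes passed the test, among them Coa7 (0.33) and, on the lower side, Cox20 (-0.38).

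The carriers that feed the chain were uneven. Etfb, the beta subunit of the flavoprotein that brings electrons from fatty acid oxidation, read 10.74, 10.77, 10.70 and 10.80 in shGFP and 11.03, 11.04, 11.06 and 11.06 in shMKRN1. It rose by 0.30 (SE 0.0458; limma adjusted p = 0.00761) and kept its call without each array in turn (limma adjusted p up to 0.0389). Its partner Etfa differed by 0.23 (limma adjusted p = 0.064), with groups apart, and Etfdh, which hands these electrons to ubiquinone, by 0.14 (limma adjusted p = 0.36). Cyct, the testis form of cytochrome c, rose by 0.57 (SE 0.137; limma adjusted p = 0.0445), from 6.45, 6.30, 6.18 and 6.07 to 7.10, 7.03, 6.69 and 6.48. Its control values were below the 6.5 that marks the receptor genes, as was that of shMKRN1 8, so the size of that change is uncertain, and the call held only without shMKRN1 8 among the left-out arrays (limma adjusted p up to 0.121) and was lost with adjustment over every probe set and with median centring or quantile normalization over genes (up to 0.103). The common cytochrome c gene Cycs was at -0.13 (limma adjusted p = 0.441) and Cyc1, the cytochrome of complex III that the symbol rule does not reach, at 0.08. The 6 electron carriers had a median of 0.185.

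Of the carriers that exchange ATP and ADP or bring in phosphate, the germ cell form Slc25a31 was called (1.06, SE 0.139; limma adjusted p = 0.00409). The heart and muscle form Slc25a4 read 10.77, 10.64, 10.78 and 10.68 in shGFP and 11.00, 11.09, 10.94 and 10.83 in shMKRN1 (0.25, SE 0.0649; limma adjusted p = 0.0595), with the groups apart. Slc25a5, the form common in dividing cells, was at -0.07 and the phosphate carrier Slc25a3 at -0.06.

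The enzymes of the citric acid cycle, which supply NADH and succinate, had a higher mean in shMKRN1 for 13 of the 13 measured genes, with a median of 0.121 and no call. Before adjustment, 6 of them were higher at p under 0.05, against 13.7% of all genes. Suclg1 (0.18, SE 0.0466; limma adjusted p = 0.0574) and Idh2 (0.18, SE 0.0475; limma adjusted p = 0.0585) were nearest to the threshold, and 7 of the 13 were separated between groups with shMKRN1 on top, against 10.6% of all genes. All 13 lay above the median level of all genes. Of the 9968 genes above it, 1729 were separated that way and 2090 were higher at unadjusted limma p under 0.05. Citrate synthase, Cs, was at 0.01.

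Regulators of mitochondrial genes showed a median of 0.033 over 17 genes, with 12 higher in the mean. Tefm, which keeps the mitochondrial RNA polymerase moving, read 8.64, 8.67, 8.81 and 8.46 in shGFP and 8.94, 9.03, 8.91 and 8.92 in shMKRN1. All knockdown arrays were above the controls, and Tefm rose by 0.31 (SE 0.073; limma adjusted p = 0.0453), a call that held only without shGFP 5 among the left-out arrays (limma adjusted p up to 0.127). It was also lost with adjustment over every probe set, with median centring over genes and without shGFP 7 and shMKRN1 8 together (limma adjusted p up to 0.0971). Polg, the mitochondrial DNA polymerase, was at 0.16 (SE 0.0481; limma adjusted p = 0.0937). Nrf1, the factor whose letters were counted above, lay between 9.42 and 9.47 in shGFP and between 9.42 and 9.56 in shMKRN1 (0.02; limma adjusted p = 0.908), and Tfam, which packs mitochondrial DNA, was at 0.07 (limma adjusted p = 0.752).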

How the data were processed

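Total RNA of 8 samples was hybridised to Affymetrix arrays. The values deposited by the authors are log2 expression levels of 34760 probe sets (1.94 to 14.46). Per the submitters' processing notes they come from RMA (version: not given in the sources used here). This method brings arrays to a common distribution, so a change that affects most genes alike is not visible and dim probe sets understate changes.

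Probe sets with exactly 1 symbol in the platform annotation were used (21640; 1321 had several symbols and 11799 were not named), and the probe set with the highest mean stood for a gene, giving 19937 genes. All 89 members matched RefSeq. Differences were fitted with limma 3.58.1 in R 4.3.3 (lmFit, eBayes, 6 residual and 4 prior degrees of freedom, no filter, no covariate), two-sided, with Benjamini-Hochberg adjustment over the 19937 genes at 0.05. For Mkrn1, permuting all 70 assignments of arrays to groups (exact permutation test, two-sided) gave p = 0.0286, the smallest possible. The code was tested on simulated data. Array shifts are means over a list of a gene's log2 value minus its shGFP mean.

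The members and all gene lists were chosen with earlier results of these data known. Named were the called members, in each class the 3 smallest p and the highest and lowest difference, the Sdh and core genes, the catalytic genes of complexes III and V, genes with tissue forms and, from each further list, the called genes and the 2 smallest p. Ndufa6, Ndufb6, Ndufc1, the remaining Ndufaf genes, Uqcr11, Cox5a, Atp5c1, Atp5d, Etfa, Etfdh, Cycs, Cyc1, Cs, Nrf1, Tfam, Slc25a3 and Slc25a5 were named after their values were seen. Other settings tried were quantile normalization, median centring, the mean of all probe sets, only genes above the median level, a pseudocount of 16, a trend and robust prior, array weights, adjustment over every probe set and leaving out each array.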

Additional observations from a re-analysis of the deposited data

Results flagged for a closer look

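In 7 of 150 groups of 4 arrays examined, the highest or lowest array stood far from the other 3. Chance alone sets about 1 in 20 such groups apart. Cox4i2 was 7.93 in shGFP 1 and 8.02 to 8.04 in the other controls. Ndufaf5 was 6.81 in shGFP 7 against 6.99 to 7.02. Sdhaf3 was 10.23 in shMKRN1 4 against 10.03 to 10.06 in the other knockdown arrays, and Polg was 9.43 in shMKRN1 6 against 9.37 to 9.38. The mean deviation of all 89 respiratory chain genes was 0.043 in shGFP 5 and -0.018 to -0.009 in the other controls, and that of complex II was 0.054 in the same array against -0.02 to -0.013. The mean deviation of the Ndufaf factors was 0.102 in shMKRN1 8 and 0.161 to 0.168 in the other knockdown arrays.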

How the results depend on the processing

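No paired analysis was possible because the groups share no replicate numbers. The members called higher (4 in all) numbered 1 with adjustment over every probe set, 23 with array weights, 19 among genes above the median level, 2 with median centring and 2 with quantile normalization over genes, 8 with a pseudocount of 16, 19 with a trend and robust prior and 1 to 5 with 1 array left out; no member was called lower under any of these settings. Centring over every probe set gave 7 members; this setting, quantile normalization over every probe set and leaving out shGFP 7 and shMKRN1 8 together were chosen after seeing the data. Over all genes, 729 higher and 167 lower calls became 321 and 57 with adjustment over every probe set, 1933 and 824 with array weights, 1285 and 310 above the median level, and 1225 and 324 with the trend and robust prior. Median centring gave 445 higher, quantile normalization over genes 431 lower and over every probe set 290 lower, and leaving out 1 array gave 256 to 650 higher and 52 to 230 lower (708 higher without shGFP 7 and shMKRN1 8 together). The share of calls that were higher was 81.4%, and 69.9% with median centring, 58.9% with quantile normalization and 70.1% with array weights. The members' median stayed above that of all genes in each: 0.053 against -0.016 with median centring and 0.052 against -0.006 with quantile normalization, with 68 and 69 of 89 higher in the mean. The complex IV median of 0.088 was 0.052 with quantile normalization, 0.046 with Ndufa4 and Ndufa4l2 in complex I and 0.061 to 0.082 with 1 array left out; those of the Ndufaf factors and complex II were 0.120 to 0.222 and 0.062 to 0.111. Differences near 0 changed sign: Cox8c was -0.016 with median centring, -0.020 with quantile normalization and -0.029 to 0.045 with 1 array left out; Ndufaf5 was -0.022 with median centring, -0.009 without shGFP 7 and shMKRN1 8 and -0.047 to 0.040 with 1 array left out; Uqcrc1 was -0.018 with array weights, -0.022 with median centring, -0.008 with quantile normalization and -0.022 to 0.015 with 1 array left out. Ndufs7 was 0.004 with quantile normalization, 0.026 and 0.017 with quantile normalization and centring over every probe set and -0.018 to 0.004 with 1 array left out. Ndufv1 was -0.004 with quantile normalization and Ndufs3 -0.000 with the mean of all probe sets. The causes were not tested. The number of arrays, 4 a group, limits the precision.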
